A study of Sus scrofa with 6 samples.

Results

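The genes described here, most of which encode subunits of the mitochondrial respiratory chain and of ATP synthase, were measured in the backfat of castrated and intact male pigs. They were chosen by name: every gene whose single symbol in the array's annotation begins with NDUF (complex I), UQCR (complex III), COX4 to COX8 (complex IV) or ATP5 (complex V), with COX7A1 left out. This gave 58 of the 6765 genes with a single symbol, carried by 73 probe sets, with 36 genes in complex I, 2 in complex III, 6 in complex IV and 14 in complex V. Each gene was represented by its brightest probe set, and 57 of the 58 passed the filter on dim probe sets and were tested. The exception was COX8H.

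The animals compared were barrows, which were surgically castrated at 7 days of age, and boars, their full brothers, which kept their testes. All were hybrids of Pietrain sires and Landrace dams, were weaned at 30 days, ate freely and were killed at 175 days, when the middle layer of backfat was frozen. The 15 sib pairs gave 3 barrow pools and 3 boar pools, each made of RNA from 5 pigs and measured on an Affymetrix array of its own. The replicate is therefore a pool and not a pig, and each p-value reflects only how pools vary. The question was what castration changes in the transcripts of subcutaneous fat.

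Complexes I to IV pass electrons from NADH and succinate to oxygen, complexes I, III and IV pump protons across the inner mitochondrial membrane, and ATP synthase (complex V) uses the returning protons to make ATP. Most subunits are encoded in the nucleus, several surround the catalytic core as accessory proteins, and a complex needs its subunits in fixed proportions. White fat cells hold fewer mitochondria than brown fat or muscle, but use them to supply citrate and ATP for fat synthesis.

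The deposited MAS5 signals lay on a linear scale with a like trimmed mean on all arrays, and arrays of a group correlated at 0.978 to 0.988. On the first principal component of all tested probe sets, the barrow pools lay at 9.49, 21.4 and 4.12 in replicates 1, 2 and 3. The boar pools lay at -15.5, -2.24 and -17.2. The groups were thus apart, with barrow replicate 2 and boar replicate 3 at the ends. In barrow replicate 2 the log2 3'/5' signal ratio was the lowest of the 6 pools for both controls. This ratio measures RNA integrity, and lower values mean more intact RNA. It was 1.09 for GAPDH in barrow replicate 2, 1.44 and 1.32 in the other barrow pools and 1.25 to 1.36 in the boar pools. For actin it was 1.85 in barrow replicate 2, 2.04 and 2.13 in the other barrow pools and 1.99 to 2.13 in the boar pools. The part of RNA integrity in the results that rest on barrow replicate 2 was not tested.

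Most respiratory chain genes had slightly higher values in barrow fat, and which of them passed the test depended on the fit. Of the 57 tested genes, each by its brightest probe set, 0 passed the threshold without a block (limma, adjusted p under 0.05), against 1.51% of all tested genes, and 7 had an unadjusted p under 0.05. With the replicate number as a block UQCR10 and ATP5I passed, and NDUFA1 passed in its other probe set in either fit. The 7 genes with an unadjusted p under 0.05 (12.3% of 57) were all higher in barrows, against 7.08% of all tested genes. Lower in barrows were 0 of 57, against 6.63% of all tested genes. In either direction the share of all tested genes was 13.7%, so 12.3% is close to that background. The log2 difference was above 0 in 47 of the 58 genes, against 48.5% of all tested genes, and its median was 0.10, against -0.0053 over all tested genes. The quartiles were 0.025 and 0.15, and only ATP5I differed by 0.5 or more. In bulk fat, fewer cells of a type and less RNA per cell cannot be told apart.

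**Figure D1:**
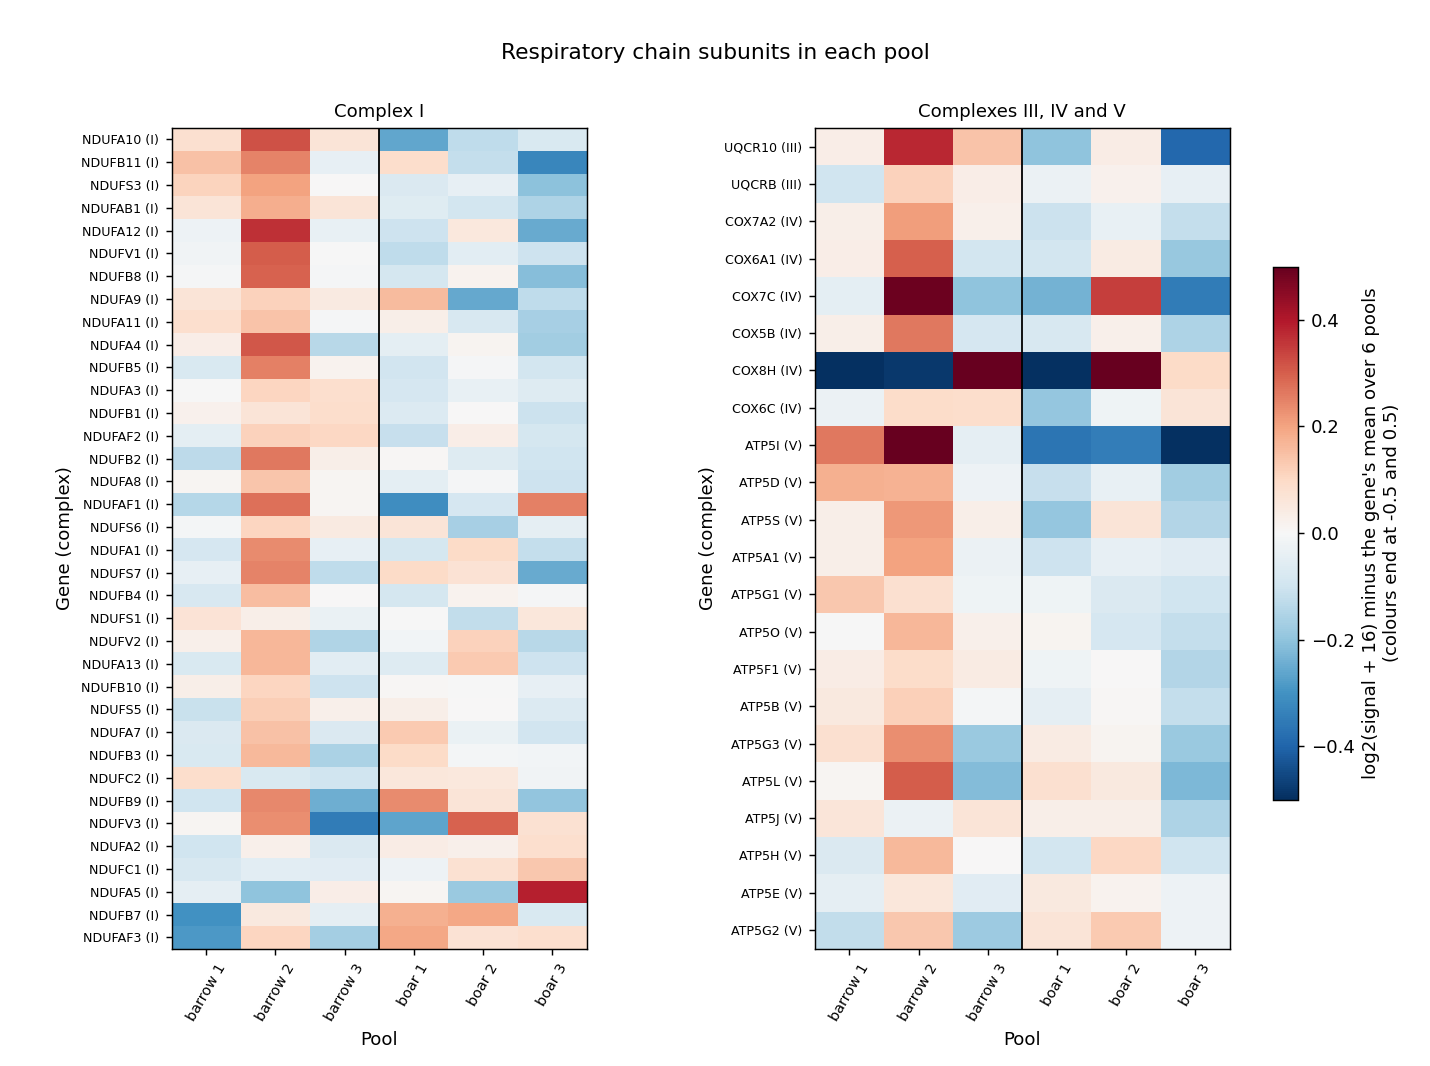
Heat map of the 58 genes (rows, with the complex in brackets) in the 6 pools (columns, barrow pools left of the line), coloured by log2(signal + 16) minus the gene's mean over all pools. Barrow 2 is the reddest column, with the highest value in 44 of 58 genes, and boar 3 holds the lowest in 27.

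The groups did not overlap, with all barrow pools higher, in 12 of 57 genes (21.1%, against 9.52% of all tested genes). These were NDUFA3, NDUFA8, NDUFA10, NDUFAB1, NDUFB1, NDUFS3, NDUFV1, COX7A2, ATP5A1, ATP5D, ATP5F1 and ATP5I. All barrow pools were lower in 2 of 57, NDUFA2 and NDUFC1, against 10.1% of all tested genes. NDUFA2 and NDUFC1, both accessory subunits of complex I, had log2 differences of -0.10 and -0.13 (limma adjusted p = 0.67 and 0.58).

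Much of the shift came from a single pool. Barrow replicate 2 was the highest of the 6 pools in 44 of the 58 genes (75.9%), against 24.9% of all tested genes, and boar replicate 3 was the lowest in 27 (46.6%), against 18.5%. With each gene set against its own mean over the 6 pools, the median deviation of the 58 genes was 0.16 in barrow replicate 2, and -0.0032 and -0.02 in barrow replicates 1 and 3. In the boar pools it was -0.05, 0.01 and -0.10 in replicates 1, 2 and 3. Without barrow replicate 2 the median log2 difference was 0.04 and 33 of 58 genes stood above 0, against 47.9% of all tested genes. The difference of 14 genes turned below 0 without that pool, among them NDUFA1, NDUFAF1, UQCRB, COX7C, ATP5G3, ATP5H and ATP5L. In that fit 0 of 57 genes passed the test (limma, adjusted p under 0.05), against 2.60% of all tested genes. With weights on the arrays, which gave barrow replicate 2 the lowest weight at 0.43, 0 of 57 passed as well, against 3.86%.

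On the median over genes, the barrow pool exceeded the boar pool of the same number in all pairs. The median difference of the 58 genes, barrow minus boar, was 0.06 between pools numbered 1, 0.15 between pools numbered 2 and 0.10 between pools numbered 3. It was above 0 in 39, 50 and 43 of the 58 genes in the same order, against 49.4%, 50.8% and 48.7% of all tested genes. It was above 0 in every pair for 30 genes, against 20.2% of all tested genes, while 3 genes were below 0 in every pair. Boar replicate 2 was the highest boar pool in 32 of the 58 genes, and barrow replicate 2 was the highest barrow pool in 50. For these counts, and for the genes below 0 in every pair, the share over all tested genes was not computed.

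**Figure D2:**
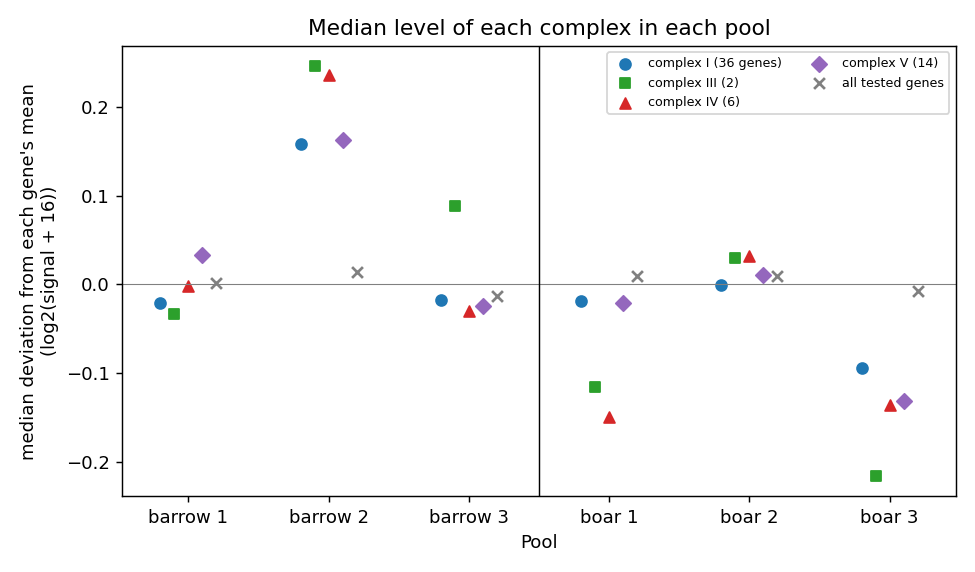
Median deviation of the genes of each complex from their own mean (vertical axis, log2(signal + 16)) in each pool, with all tested genes as crosses. All complexes peak in barrow 2, where the medians are 0.16 for complexes I and V, 0.24 for complex IV and 0.25 for complex III, while the crosses stay between -0.0131 and 0.0139.

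Complex I, the NADH dehydrogenase that starts the chain, had the lowest median difference of the 4 complexes, and it rested on barrow replicate 2. Differences between the complexes were not tested. The median log2 difference of the 36 genes with an NDUF name was 0.08, with 27 above 0, and without that pool it was -0.0057, with 18 above 0. These genes include NDUFA4 and 3 assembly factors, which are described apart below. The matrix arm, which takes up NADH and passes its electrons on, had a median of 0.05 over 12 genes. The membrane arm, which pumps protons, had 0.07 over 19 genes. Without barrow replicate 2 these medians were -0.0051 and -0.01.

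NDUFA10, an accessory subunit of the membrane arm, had the largest difference in complex I. Its signal was 1137, 1343 and 1124 in barrow pools 1, 2 and 3, against 896, 984 and 1019 in boar pools 1, 2 and 3. All barrow pools lay above all boar pools, yet the log2 difference of 0.31 (95% CI 0.08 to 0.53) did not pass the test (limma adjusted p = 0.23, and 0.13 with the replicate number as a block). NDUFAB1, the mitochondrial acyl carrier protein, is a complex I subunit that also serves mitochondrial fatty acid synthesis. Its signal was 5858, 6359.6 and 5859 in barrow pools 1, 2 and 3, against 5376, 5258 and 5039 in the boar pools. The groups were apart here as well, at a log2 difference of 0.20 (95% CI 0.055 to 0.35, limma adjusted p = 0.23), and without barrow replicate 2 the difference was 0.17.

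NDUFS3, a core subunit of the matrix arm, had 1948, 2072 and 1806 in the barrow pools and 1714, 1752 and 1560.1 in the boar pools. Its log2 difference was 0.21 (limma adjusted p = 0.35), with the groups apart. NDUFS3 has other probe sets that did not give the same picture, at 0.17 and -0.22 (limma adjusted p = 0.77 and 0.69). NDUFB11, an accessory subunit of the membrane arm, had a log2 difference of 0.24 (limma adjusted p = 0.46) and its groups overlapped. NDUFV1, which binds the flavin that accepts electrons from NADH, had 0.19 (limma adjusted p = 0.49), and 0.09 without barrow replicate 2.

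A few complex I genes stood lower in barrows without passing the test. NDUFAF3, an assembly factor that does not stay in the finished complex, had 747, 987 and 812 in the barrow pools, against 1049, 964 and 972 in the boar pools. Barrow replicate 2 lay among the boar pools, and the log2 difference was -0.23 (limma adjusted p = 0.44), or -0.35 without that pool. NDUFB7, an accessory subunit of the membrane arm, had -0.20 (limma adjusted p = 0.57), or -0.27 without that pool. The other assembly factors, NDUFAF1 and NDUFAF2, had 0.10 and 0.11 (limma adjusted p = 0.88 and 0.775), or -0.019 and 0.08 without that pool.

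**Figure D3:**
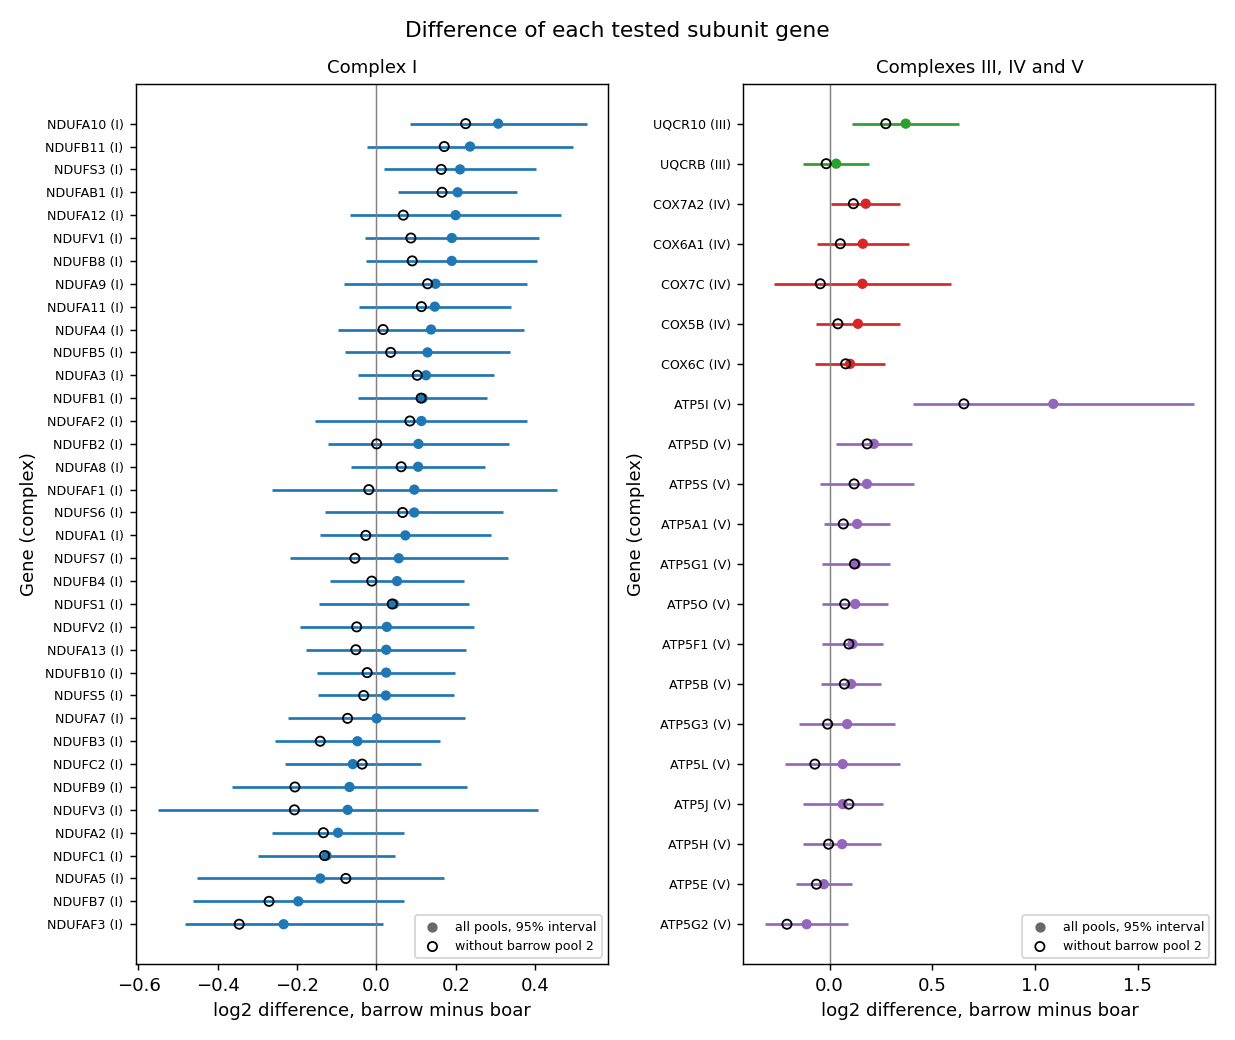
Log2 difference, barrow minus boar, of each of the 57 tested genes (filled points) with its 95% limma interval (lines), and the same difference without barrow pool 2 (open circles). Most open circles lie left of their filled point, and ATP5I stands apart at 1.09 with all pools and 0.65 without barrow pool 2.

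NDUFA4 carries a complex I name but is now known as a subunit of complex IV. Its signal was 7046, 8539 and 6250.2 in the barrow pools and 6659.7, 6942 and 6106 in the boar pools. Its log2 difference of 0.14 (limma adjusted p = 0.66) was 0.02 without barrow replicate 2.

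Complex III, the cytochrome bc1 complex, is represented by UQCR10 and UQCRB, and the difference between these genes was not tested. UQCR10, a small accessory subunit, had 4718, 6003 and 5101 in the barrow pools, against 4009.96, 4734 and 3514 in the boar pools. The groups overlapped at a single point, where boar replicate 2 exceeded barrow replicate 1, but each barrow pool exceeded the boar pool of the same number, by 0.23, 0.34 and 0.54 on the log2 scale. The log2 difference of 0.37 (95% CI 0.11 to 0.63, 1.29-fold) did not pass without a block (limma adjusted p = 0.205) and did with the replicate number as a block (limma adjusted p = 0.040). UQCRB, which lines the ubiquinone pocket of the complex, had 5113, 5923 and 5599.8 in the barrow pools and 5362, 5561 and 5319 in the boar pools. All boar pools lay between barrow replicate 1 and the other barrow pools, at a log2 difference of 0.03 (limma adjusted p = 0.91), or -0.017 without barrow replicate 2.

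With the replicate block, 2 of the 57 genes rose, UQCR10 and ATP5I, against 2.13% of all tested genes that rose in that fit and 3.10% that changed in either direction. A share of 2 in 57 is close to that background and is no result about the respiratory chain as a group. With the block and without barrow replicate 2, an alternative chosen after seeing the data, 4 of 57 passed against 12.0% of all tested genes: ATP5I, UQCR10 and COX7C were higher in barrows and NDUFAF3 lower.

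Complex IV, cytochrome c oxidase, passes electrons to oxygen, and all 5 of its tested genes stood above 0. This held for 4 of 5, all but COX7C, without barrow replicate 2. With the untested COX8H included, the median log2 difference of the 6 genes was 0.15, and 0.07 without that pool. COX7A2, the form of subunit 7A found in most tissues, had 3977, 4499 and 3958 in the barrow pools and 3609, 3791 and 3585 in the boar pools. The groups were apart, at a log2 difference of 0.18 (95% CI 0.01 to 0.34, limma adjusted p = 0.38). COX5B, COX6A1 and COX6C, which surround the catalytic core, had differences of 0.14, 0.16 and 0.10 (limma adjusted p = 0.61, 0.58 and 0.67). Their groups overlapped, and without barrow replicate 2 the differences were 0.04, 0.05 and 0.08.

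COX7C, another small subunit, varied more between replicate numbers than between groups. Its signal was 8719, 12676 and 7846 in barrow pools 1, 2 and 3, against 7651, 11480.4 and 7078 in boar pools 1, 2 and 3. Number 2 was high in both groups, so that the unpaired log2 difference of 0.16 had a wide interval (95% CI -0.27 to 0.59, limma adjusted p = 0.81). The differences within the pairs were 0.19, 0.14 and 0.15, but the gene did not pass with the block either (limma adjusted p = 0.19). Without barrow replicate 2 and without a block its difference was -0.05. The other probe set of COX7C had 0.13 (limma adjusted p = 0.85).

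COX8H, the heart and muscle form of subunit 8, fell below the filter on dim probe sets and was not tested. Its signal was 20.5, 23.6 and 116.9 in the barrow pools and 13.9, 68.9 and 43.1 in the boar pools, with no order between the groups. Genes that mark skeletal muscle, where this form belongs, were as dim: 0 of 11 on the array passed the filter. Their signals summed to 273 to 363 in the barrow pools and 289 to 331 in the boar pools.

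Complex V had the gene with the greatest difference of all 58, ATP5I. It encodes subunit e, which together with subunit g (ATP5L) holds ATP synthase dimers together and so shapes the cristae of the inner membrane. ATP5I had a signal of 1027, 2300.02 and 826 in barrow pools 1, 2 and 3, against 659, 667 and 443 in boar pools 1, 2 and 3. All barrow pools lay above all boar pools, and barrow replicate 2 was far above the other barrow pools. The log2 difference was 1.09 (95% CI 0.40 to 1.77, 2.13-fold), which did not pass without a block (limma adjusted p = 0.15) and did with it (limma adjusted p = 0.029). Without barrow replicate 2 the difference was 0.65.

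ATP5L, the partner of ATP5I, had a log2 difference of 0.06 (limma adjusted p = 0.90) in its brightest probe set, with 5393, 6612 and 4603 in the barrow pools and 5662, 5546 and 4575 in the boar pools. This difference was -0.07 without barrow replicate 2. Its dimmer probe sets had 0.13 and 0.34 (limma adjusted p = 0.80 and 0.51). The difference between ATP5I and ATP5L was not tested. The other probe set of ATP5I lay below the filter, at signals of 10.6, 16.8 and 10.5 in the barrow pools and 6.43, 9.59 and 22.5 in the boar pools, and so bears on neither direction.

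The F1 part of ATP synthase, whose head makes ATP, had a median log2 difference of 0.12 over 4 genes, and 0.07 without barrow replicate 2. ATP5D, its delta subunit, had 2806, 2798 and 2434 in the barrow pools and 2291, 2416 and 2199 in the boar pools. These did not overlap, at a difference of 0.22 (95% CI 0.03 to 0.40, limma adjusted p = 0.32). The alpha subunit ATP5A1 had 0.13 (limma adjusted p = 0.51) with the groups apart, or 0.07 without that pool, the catalytic beta subunit ATP5B had 0.10 (limma adjusted p = 0.58), and the epsilon subunit ATP5E had -0.03 (limma adjusted p = 0.91).

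The stalk genes ATP5F1, ATP5H, ATP5J and ATP5O, which hold the head against rotation, had a median of 0.09 and a range of 0.06 to 0.12. The genes ATP5G1, ATP5G2 and ATP5G3 encode the same mature protein, subunit c of the rotating ring, and pointed different ways. ATP5G1 had 0.13, ATP5G3 0.09 and ATP5G2 -0.11 (limma adjusted p = 0.55, 0.81 and 0.69). Without barrow replicate 2 they had 0.12, -0.0096 and -0.21 in the order ATP5G1, ATP5G3 and ATP5G2, and the median of the 3 was -0.0096, against 0.09 with all pools. ATP5G2 had 3749, 4492 and 3605 in the barrow pools and 4272, 4474 and 4012 in the boar pools, so that barrow replicate 2 alone exceeded the boar pools. ATP5S, named coupling factor B and not a structural subunit, had 0.18 (limma adjusted p = 0.53) and -0.03 in its other probe set.

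Among genes with more than 1 tested probe set, the largest gap between probe sets was that of NDUFA1, a small membrane arm subunit that complex I needs to assemble. Its brightest probe set had 4022, 5030.26 and 4149 in the barrow pools and 4018, 4567 and 3929.7 in the boar pools, at a log2 difference of 0.07 (limma adjusted p = 0.83), or -0.03 without barrow replicate 2. The other had 1565, 1685 and 1678 in the barrow pools, against 794, 1024 and 894 in the boar pools. Here the groups did not overlap. Its log2 difference of 0.86 (95% CI 0.63 to 1.09, 1.81-fold) passed the test (limma adjusted p = 0.0041, and 0.0031 with the block), and it did so under each of the 16 alternatives run (limma adjusted p between 3.5e-05 and 0.045). It was singled out after its values were seen, and 1.16% of all tested probe sets passed, or 2.35% with the block. Its name ends in _s_at, which in Affymetrix naming marks probes shared by several transcripts, and which transcript it measured was not tested.

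**Figure D4:**
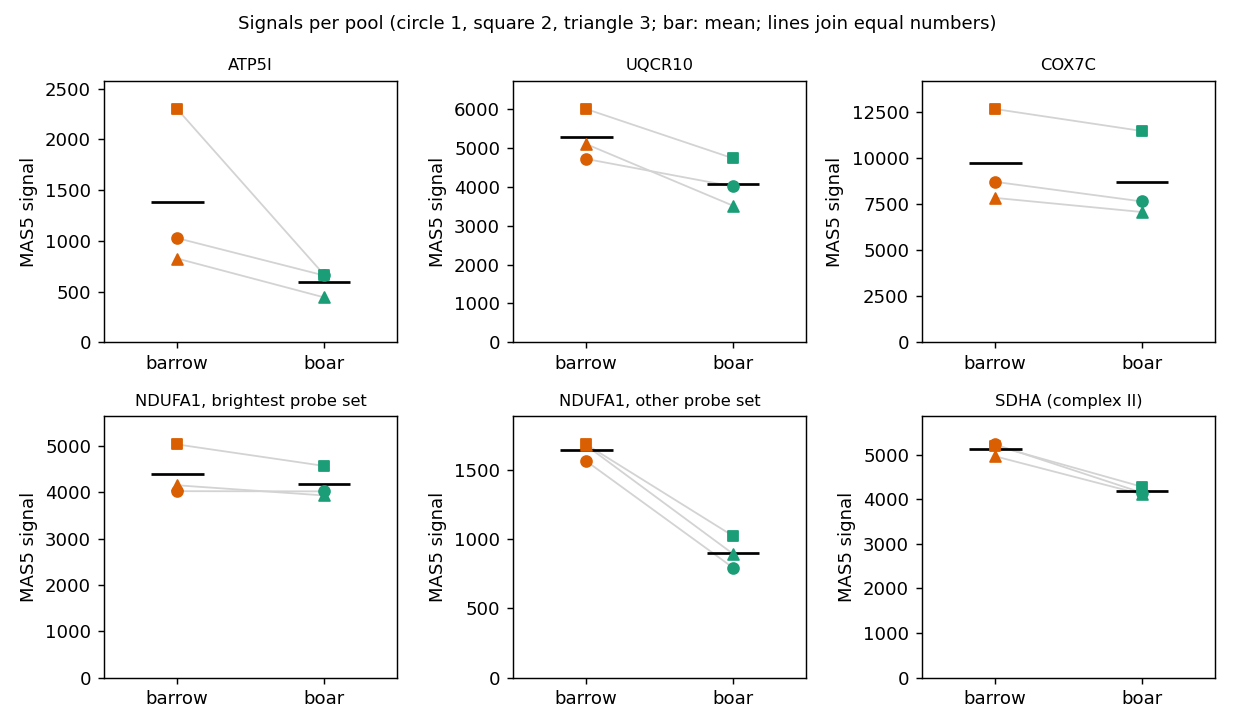
MAS5 signal in each pool, barrow left and boar right, for ATP5I, UQCR10, COX7C, both probe sets of NDUFA1 and the complex II gene SDHA. Bars mark group means and grey lines join pools of the same number. Both groups separate cleanly in the other probe set of NDUFA1 and in SDHA, and ATP5I shows the high barrow pool 2.

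Of the 58 genes 12 had more than 1 probe set, with 15 other probe sets of which 10 passed the filter. The sign of the brightest probe set was shared by 7 of these 10 and not by 3, which belonged to NDUFS3, NDUFV2 and ATP5S. NDUFB3, a membrane arm subunit, had -0.05 and -0.24 (limma adjusted p = 0.90 and 0.29). With the mean of a gene's probe sets in place of the brightest, 1 gene passed, NDUFA1 at 0.46 (limma adjusted p = 0.047). The share of all tested genes that passed in that fit is not given here, so this count has no background.

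Complex II, succinate dehydrogenase, lies outside the naming rule and links the citrate cycle to the chain. All 4 of its subunit genes stood above 0, with a median log2 difference of 0.28, and 0.22 without barrow replicate 2. SDHA, the flavin-bearing subunit, had 5226, 5199.96 and 4959.7 in the barrow pools, against 4143, 4277 and 4107 in the boar pools. The groups were apart and barrow replicate 2 was not the highest. The difference was 0.30 (95% CI 0.15 to 0.44, limma adjusted p = 0.067, and 0.040 with the block). SDHC, a membrane anchor, had 0.33 (limma adjusted p = 0.15, and 0.047 with the block), and the iron-sulfur subunit SDHB had 0.27 (limma adjusted p = 0.16). SDHD had 0.17 (limma adjusted p = 0.55) with overlapping groups, or 0.06 without barrow replicate 2. In SDHB, SDHC and SDHD, unlike SDHA, barrow replicate 2 was the highest pool. The mean deviation of the 4 genes from their own means was 0.28 in that pool, and 0.07 and 0.06 in barrow replicates 1 and 3. In the fit without a block 0 of 4 passed, against 1.51% of all tested genes. With the block 2 of 4 rose, against 2.13% of all tested genes that rose in that fit. The difference between complex II and the other complexes was not tested.

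Genes that work beside the chain did not share a direction. As background for these lists, 1.51% of all tested genes passed without a block and 3.10% with it, in either direction. Of 7 genes of outer membrane channels and nucleotide exchange 5 stood above 0, with a median of 0.07, and 0 passed without a block and 2 with it. Those 2 were VDAC1, the main pore of the outer membrane, at 0.35 (limma adjusted p = 0.086, and 0.020 with the block), and SLC25A4, an exchanger of ADP and ATP, at 0.42 (limma adjusted p = 0.097, and 0.021 with the block). SLC25A4 had 2746, 3045 and 2507 in the barrow pools and 2179, 2223 and 1810.25 in the boar pools, with the groups apart. VDAC2, a related pore, had 0.11 (limma adjusted p = 0.63). The other ADP/ATP exchangers, SLC25A5 and SLC25A6, had 0.0084 and -0.07 (limma adjusted p = 0.99 and 0.80).

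Of 4 genes of electron carriers 3 stood above 0, with a median of 0.06 and 0 past the test. ETFDH, ETFB and ETFA, which bring electrons from fatty acid oxidation to ubiquinone, had 0.12, -0.11 and 0.08 (limma adjusted p = 0.59, 0.61 and 0.81). Of 10 assembly factor genes 4 stood above 0, with a median of -0.05, and 0 of 9 tested passed. FOXRED1 and ECSIT, which help build complex I, had 0.26 and 0.11, and COX10, which makes the heme of complex IV, had 0.20 (limma adjusted p = 0.69, 0.78 and 0.70).

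Regulators of mitochondrial biogenesis showed no common rise. Of 5 on the array 2 stood above 0 and 0 of 4 tested passed. TFAM, which packs and transcribes mitochondrial DNA, had 1489, 1547 and 1516 in the barrow pools and 1741, 1645 and 1599 in the boar pools. All barrow pools were lower, at -0.13 (limma adjusted p = 0.57). YY1 had -0.11 and TFB1M -0.02 (limma adjusted p = 0.65 and 0.99). PPARGC1A, the coactivator that drives biogenesis, lay below the filter at signals of 4.22, 31.1 and 16.2 in the barrow pools and 4.41, 4.53 and 3.39 in the boar pools. Subunits encoded in mitochondrial DNA could not be read, as 0 of 42 symbols and alternative names searched for them were the single symbol of a probe set.

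**Figure D5:**
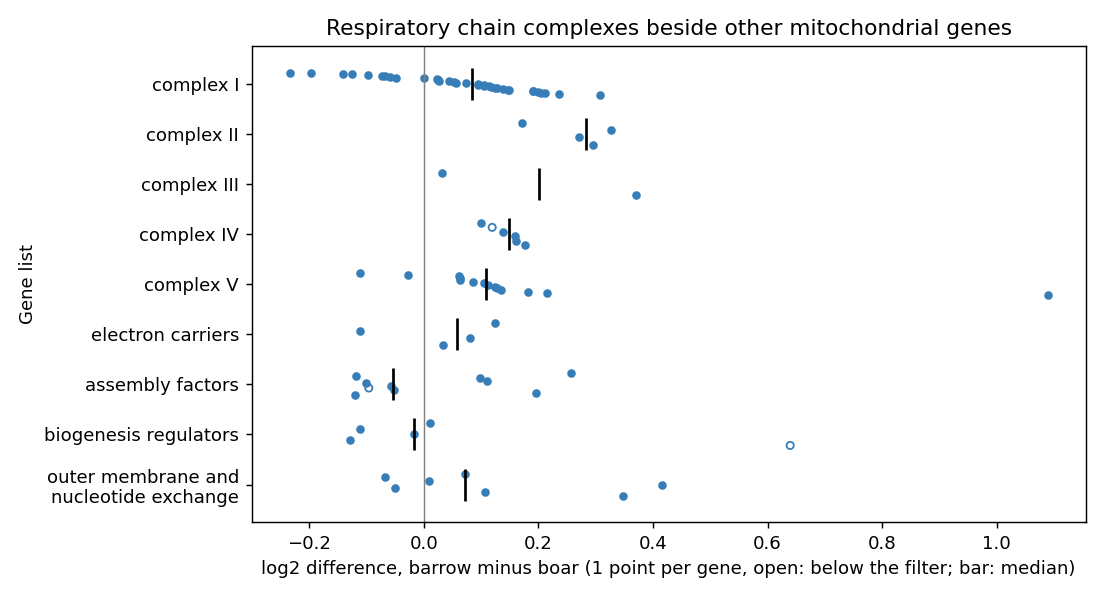
Log2 difference, barrow minus boar, of each gene (points, open where below the filter) and the median (bars) for the complexes and for lists of other mitochondrial genes. The complex II genes lie between 0.17 and 0.33, whereas assembly factors and biogenesis regulators scatter on both sides of 0.

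Cell type markers were read beside these values, and their part in them was not tested. The background for their calls is again 1.51% of all tested genes without a block and 3.10% with it. Adipocyte markers were bright, as fits the labelled tissue, with 7 of 10 on the array and all 7 tested. Their summed signal was 71687 to 78789.7 in the barrow pools and 75128 to 79749.5 in the boar pools, with a median log2 difference of 0.0052, or -0.09 without barrow replicate 2, and 1 of 7, the hormone gene LEP, rose. Macrophage markers (8 of 11 on the array) summed to 7818 to 9214 in the barrow pools and 8172 to 10596 in the boar pools, with a median of -0.20. Of 7 tested 0 passed without a block, and with it 1 fell, C1QA, at -0.44 (limma adjusted p = 0.13, and 0.035 with the block). Endothelial markers (9 of 9) summed to 14529.9 to 15407 in the barrow pools and 16424 to 17133 in the boar pools, with a median of -0.17, and 1 of 9, TEK, fell. Thermogenic fat markers (4 of 7) summed to 3199 to 4275 in the barrow pools and 3322 to 4005 in the boar pools, with 0 of 2 tested past the test. Most of that sum was CIDEA, also counted as an adipocyte marker, at 3054 to 4154 in the barrow pools and 3218 to 3842 in the boar pools. DIO2 and PPARGC1A lay below the filter, so the sum says little about thermogenic fat.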

How the data were processed

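The deposited values were MAS5 signals, a linear intensity per probe set scaled to a common trimmed mean, per the submitters' processing notes and the values. The MAS5 version is not given in the sources used here. From them log2(signal + 16) was computed, 124 control probe sets were dropped, and the upper 60% of the other 23999 by mean were tested, 14399 in all. Barrow was compared with boar in limma 3.58.1 (run in R 4.3.3, where the prior variance followed the intensity), 3 pools against 3, with Benjamini-Hochberg adjustment over all 14399. The fit was tested on simulated data. The number of arrays limits the precision.

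Symbols came from the platform annotation, where 10099 probe sets had 1 symbol, 198 several and 13826 none, and all 58 were found in RefSeq's gene table. The members and lists were chosen with earlier results of these data known. The genes named first were those past the test with or without a block. To these were added the 5 smallest p and the 2 lowest differences per complex, set isoform and role genes, and 3 per comparison list. Genes whose probe sets differ in sign were added where at least 1 of these had an unadjusted limma p under 0.05. Other members were named after their values were seen.

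The sample titles give only a replicate number, and whether same-numbered pools hold brothers was not tested. The block and the pairs used here rest on that number. Deviations from the group means correlated weakly, at 0.12, 0.17 and 0.26, between same-numbered pools and at -0.19 to -0.01 between others. Alternatives covered scaling, pseudocount, filter, variance model, array weights, the block, each pool left out and the choice of probe set. A search of promoters for motifs was not run, and sequences were not used here.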

Additional observations from a re-analysis of the deposited data

How the results depend on the processing

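Over all probe sets 167 passed the test, against 338 with the replicate block, 96 with no filter, 32 with no intensity trend, 425 with array weights, 24 to 291 with 1 pool left out (24 without boar replicate 1, 31 without boar replicate 3, 53 and 66 without barrow replicates 1 and 3, 291 without barrow replicate 2), and 1452 with the replicate block and without barrow replicate 2, which was chosen after seeing the data. Of the respiratory chain genes 0 passed, against 2 with the replicate block, 1 when probe sets were averaged per gene and 4 with the block and without barrow replicate 2, and 0 with any 1 pool left out. For the averaged probe sets the share of all tested genes is not given here. With the block and without barrow replicate 2, the log2 differences were 0.75 for ATP5I, 0.38 for UQCR10, 0.17 for COX7C and -0.37 for NDUFAF3 (limma adjusted p = 8.6e-04, 0.0055, 0.041 and 0.024). Only the pools numbered 1 and 3 carry the differences of that fit, so its small p-values and many calls rest on very few arrays. The limma adjusted p over the alternatives ran between 8.6e-04 and 0.46 for ATP5I and between 0.0055 and 0.55 for UQCR10. The complex I median was -0.0057 to 0.12 with 1 pool left out, lowest without barrow replicate 2. It was 0.13 to 0.27 for complex III, 0.07 to 0.21 for complex IV and 0.07 to 0.16 for complex V. Some log2 differences turned sign. With 1 pool left out, COX7C was -0.045 to 0.37 and UQCRB -0.017 to 0.089, both below 0 only without barrow replicate 2, and TFB1M was -0.15 to 0.088, above 0 without barrow replicate 1 (0.084), boar replicate 1 (0.012) or boar replicate 2. UQCRB was -0.0047 with array weights. With the block and without barrow replicate 2, TFB1M was 0.075 and ETFA was -0.016. The other probe sets of ATP5S and NDUFS3 were -0.027 and -0.22. The cause was not tested. Of 594 alternatives for 37 named results 17 newly passed and 10 turned sign. Only the other NDUFA1 probe set had passed at first, so the remaining 567 say little about stability. Array weights also brought SDHA and VDAC1 past the test (limma adjusted p = 0.024 and 0.049). The replicate block changed no other call among the genes named by rule than those of ATP5I, UQCR10, SDHA, SDHC, VDAC1 and SLC25A4. Pools hide the spread between pigs, and 3 per group limit what could be called.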
